A study of Mus musculus with 18 samples.

Results

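The genes described here are 10 nuclear genes that set the shape of the mitochondrial network: Mfn1, Mfn2 and Opa1 for fusion, Oma1 and Yme1l1 for the cleavage of OPA1, and Dnm1l, Mff, Fis1, Mief1 and Mief2 for fission. They were taken by symbol from the GENCODE M21 annotation of the mouse genome (build GRCm38), which holds 55450 genes, of which 21951 are protein-coding, and all 10 were found. Splenic B cells of C57BL/6 mice that carry the microRNA gene Mir155 (WT) or lack it (KO) were activated through CD40 (1 µg/ml antibody) and the B cell receptor (5 µg/ml anti-IgM F(ab')2) with IL-4 (4 ng/ml), and were kept for 2 days under 1% O2 and 5% CO2. Chromatin from these cultures was immunoprecipitated for KDM2A, with a non-commercial antibody, and for H3K36me2, with 3 libraries per genotype and antibody, and replicate 1 of each group came from male mice and replicates 2 and 3 from female mice. B cells had been enriched by removing cells with CD43, Ter119 or CD4, and no Cre driver that would limit the loss of Mir155 to B cells is named for these samples. The 12 peak lists were read, 1 per library, and the 6 inputs are not analysed here. Mice of 6 to 25 weeks were used in the study as a whole, and no age is given for single samples.

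Mitochondria join and divide continuously. Fusion of the outer membranes is carried out by the large GTPases MFN1 and MFN2 and fusion of the inner membranes by OPA1, whose long forms are cut by the proteases OMA1 and YME1L1. Division is driven by the dynamin-related GTPase DRP1, the product of Dnm1l, which the outer-membrane proteins MFF, FIS1, MIEF1 (MiD51) and MIEF2 (MiD49) bring to the organelle. KDM2A is a demethylase that removes methyl groups from H3K36me2 and that binds unmethylated CpG-rich DNA through its zinc finger-CxxC domain. The comparison of WT and KO B cells asked where KDM2A and H3K36me2 lie at these genes under low oxygen, and whether this differs in cells without miR-155.

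The promoter was defined as 2 kb on each side of every annotated transcription start site (TSS) of a gene, with overlapping windows joined, and the first TSS is the one farthest 5′. Under this definition the 10 genes had from 1 window (Mief2, 4.05 kb in all) to 5 windows (Mfn1, 23.5 kb, and Mff, 22.0 kb), against a median of 6.81 kb over protein-coding genes. Every one of the 10 had a CpG island, a stretch of over 200 bp with at least 50% G and C and an observed-to-expected CpG ratio above 0.6, at the window of its first TSS and none at its internal windows. Of all protein-coding genes, 60.0% had an island in a promoter window. The islands ran from 288 bp with 22 CpG at Fis1 to 751 bp with 60 CpG at Yme1l1, and Mief2 had 2 within its window, 1 at its own start and 1 at the start of the neighbouring gene Flii.

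The 250 bases directly upstream of the first TSS are shown for 4 of the genes, 5′ to 3′ on the strand of the gene, with each CpG, the dinucleotide bound by the CxxC domain, in capitals. Mff was chosen for holding the strongest KDM2A peak, Mief2 because its upstream bases lay inside a peak in every WT list and in no KO list, Opa1 for being listed least often, and Fis1 because most KDM2A peaks of this gene lay far from its island. The bases were read from the GRCm38.p6 assembly of RefSeq at chr1:82724640-82724889 (plus strand, Mff), chr11:60728148-60728397 (plus strand, Mief2), chr16:29579084-29579333 (plus strand, Opa1) and chr5:136953025-136953274 (plus strand, Fis1).
Mff: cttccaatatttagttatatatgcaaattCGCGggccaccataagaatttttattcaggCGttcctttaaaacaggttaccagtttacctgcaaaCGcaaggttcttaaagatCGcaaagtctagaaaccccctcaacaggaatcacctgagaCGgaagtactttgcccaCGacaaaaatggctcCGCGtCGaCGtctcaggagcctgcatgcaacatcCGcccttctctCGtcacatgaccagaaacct
Mief2: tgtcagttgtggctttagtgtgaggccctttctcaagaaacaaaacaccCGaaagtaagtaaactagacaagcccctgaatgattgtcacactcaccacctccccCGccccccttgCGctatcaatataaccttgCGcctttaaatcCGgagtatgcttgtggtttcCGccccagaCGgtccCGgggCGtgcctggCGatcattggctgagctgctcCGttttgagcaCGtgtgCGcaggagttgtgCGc
Opa1: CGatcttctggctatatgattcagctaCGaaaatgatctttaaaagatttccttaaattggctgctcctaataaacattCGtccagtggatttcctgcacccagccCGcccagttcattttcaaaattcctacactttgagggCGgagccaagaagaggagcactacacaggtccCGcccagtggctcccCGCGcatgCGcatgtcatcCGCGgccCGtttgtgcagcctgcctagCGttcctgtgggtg
Fis1: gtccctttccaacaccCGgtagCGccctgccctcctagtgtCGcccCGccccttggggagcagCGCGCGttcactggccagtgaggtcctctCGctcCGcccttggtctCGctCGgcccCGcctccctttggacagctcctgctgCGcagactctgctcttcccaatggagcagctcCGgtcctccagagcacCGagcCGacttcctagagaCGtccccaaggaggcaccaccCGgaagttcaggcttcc

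These stretches held 13 CpG at Mff and Opa1, 14 at Mief2 and 18 at Fis1, and the other members ranged from 9 at Yme1l1 to 22 at Mfn2. At least 9 CpG were present in the same stretch of 48.9% of protein-coding genes, and at least 22 in 16.0%, so the 10 genes lay in the upper part of the range without standing outside it. The letters GGGCGG, the GC box, were found on either strand in 8 of the 10 (all but Mfn2 and Yme1l1) and in 39.0% of all such stretches. The letters TGCGCATGC, a core of the NRF1 motif, were found in 1, at Opa1, against 1.86% of all stretches. The E-box CACGTG was found in 1, at Mief2, against 6.53% of all stretches. It contains the hypoxia response element core ACGTG on both strands, so the matches to that core at Mief2 are the same bases, and the core was found in no other member and in 17.4% of all stretches.

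Some transcripts of other genes start within 2 kb of these TSS, and a peak there cannot be given to either gene. Mastl starts 345 bp from Yme1l1 on the opposite strand, the noncoding C430014B12Rik 169 bp from a start of Mff, and Flii, on the opposite strand, 1135 bp upstream of Mief2. The microRNA gene Mir5100 starts 218 bp from the nearest start of Mief2. AC140267.1 starts 1710 bp from the nearest start of Mief1, and Gm28941 1948 bp from an internal start of Mff.

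The lists differed in size between libraries and genotypes. For KDM2A, 29105, 23372 and 26831 peaks were listed in WT replicates 1 to 3 and 15667, 15387 and 21705 in KO replicates 1 to 3, which covered 0.433% to 1.11% of the genome. For H3K36me2 the numbers were 85387, 89768 and 94136 in WT and 106720, 37447 and 45180 in KO B cells, and these lists covered 4.17% to 5.32% of the genome in WT but 3.63%, 1.59% and 1.44% in KO replicates 1, 2 and 3. Read depth behind the lists is unknown, so a gene without a peak is unlisted rather than unbound. Among markers of other cell types, T cell genes had a KDM2A promoter peak in 1 to 4 of 8 genes per library, myeloid genes in 0 to 2 of 6 and erythroid genes in 1 of 5. For H3K36me2 the numbers were 3 to 6 T cell, 2 to 6 myeloid and 0 to 2 erythroid genes per library. Peaks do not measure transcripts, and the deletion of Mir155 itself cannot be read from these lists. Replicate 1 of a group came from other mice than replicates 2 and 3, as the sexes differ, but nothing in the labels says that replicates 2 and 3 came from separate cultures, so their spread may be partly technical.

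KDM2A peaks were found at the promoters of most of these genes in both genotypes. Of the 10, 9, 8 and 9 had a promoter peak in WT replicates 1, 2 and 3, and 7, 9 and 9 in KO replicates 1, 2 and 3. In the same order the shares of all protein-coding genes with an island were 70.7%, 69.7%, 69.8%, 60.9%, 59.1% and 67.8%. Oma1, Yme1l1, Mff, Fis1, Mief1 and Mief2 had a peak in all 6 lists, Mfn2 and Dnm1l in 5, Mfn1 in 3 and Opa1 in 2. A peak in all 6 lists was present for 26.4% of protein-coding genes and for 41.9% of those with an island. Among 20 other genes of mitochondrial dynamics, a list written with earlier results of these data known, 8 had one. By this window definition both proteases and all 4 DRP1 receptors were listed throughout. Of the 3 fusion GTPases none was, and Mfn2 missed only KO replicate 1. In every list Fis1 had a peak at least 8.56 kb downstream of its first TSS, which was itself covered in 0 WT and 1 KO list. The only Mief2 peak of KO replicate 3 lay over the Flii start and ended 936 bp upstream of Mief2.

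**Figure D1:**
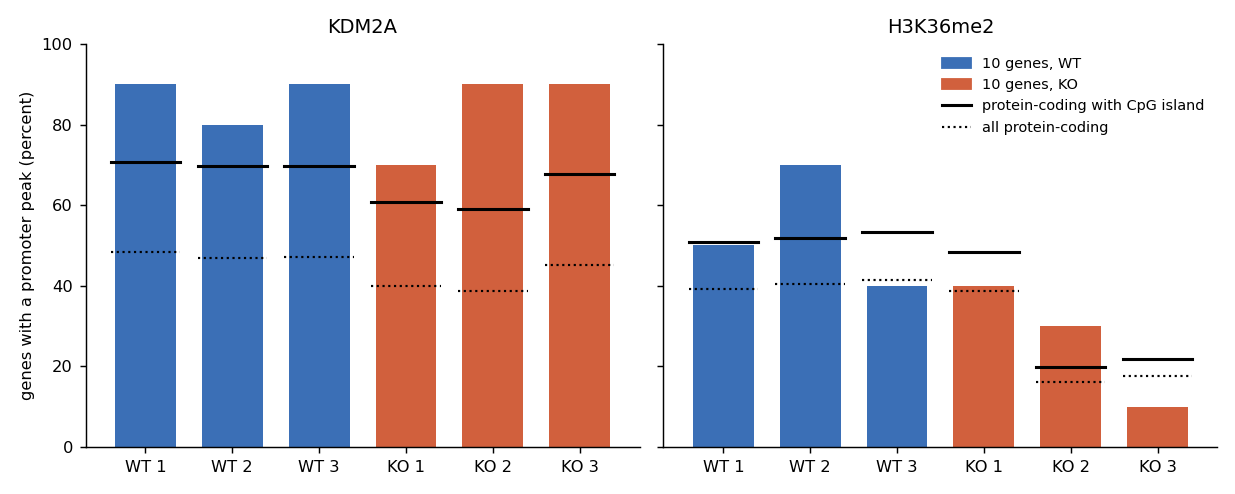
Percent of the 10 genes with at least 1 promoter peak in each of the 6 lists of an antibody (bars, blue WT, orange KO). The solid line gives the percent of protein-coding genes with a CpG island and the dotted line that of all protein-coding genes in the same list. KDM2A bars stand at 70% to 90%, above the solid line in every list, while H3K36me2 bars stand at 10% to 70% on both sides of it.

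The KDM2A peaks sat on the CpG islands and the H3K36me2 peaks beside them. Of 62 KDM2A peaks in the promoter windows over the 6 lists, 49 (79.0%) overlapped an island and 40 covered the first TSS. Of 32 H3K36me2 peaks in the same windows, 3 (9.38%) overlapped an island, at Fis1 in KO replicate 1 and at Mief1 in WT replicate 2 and KO replicate 1. Over all protein-coding genes with an island, 70.3% to 81.3% of the KDM2A promoter peaks and 2.54% to 13.7% of the H3K36me2 promoter peaks of a list overlapped an island, and the 10 genes fell within both ranges. The height of a peak was read as its fold over the local control background. It ran from 2.34 to 4.70 for the KDM2A promoter peaks and from 2.23 to 2.98 for the H3K36me2 promoter peaks.

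Among the fusion genes, Mfn2 had the most regular KDM2A signal. Its highest promoter fold was 4.09, 2.53 and 2.52 in WT replicates 1 to 3, was absent from KO replicate 1, and was 3.43 and 3.26 in KO replicates 2 and 3. WT replicate 1 was the highest and the KO values lay inside the WT range. All 5 peaks covered the first TSS of Mfn2 (chr4:147873599-147904704, minus strand) and its island, and were 312 to 614 bp wide. At Mfn1 (chr3:32529465-32579239, plus strand) a peak was listed in WT replicate 3, with a fold of 3.16, and in KO replicates 1 and 3, with folds of 3.18 and 3.88, each across the first TSS. Opa1 (chr16:29579334-29654884, plus strand) was listed in WT replicate 1, with a fold of 3.38, and in KO replicate 2, with a fold of 3.27, and again both peaks crossed the first TSS. Thus where the fusion genes had a promoter peak, it was in the same place in both genotypes.

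The 2 protease genes, Oma1 and Yme1l1, were more even. OMA1 is activated by stress and loss of membrane potential, and YME1L1 is the ATP-dependent protease of the inner membrane that faces the intermembrane space. At Oma1 (chr4:103313812-103371868, plus strand) the highest fold came to 3.64, 3.05 and 2.87 in WT and 2.76, 3.10 and 2.71 in KO B cells. The genotypes overlapped. The peak covered the first TSS in all lists except KO replicate 1, where it began 46 bp downstream of it. At Yme1l1 (chr2:23156369-23199260, plus strand) the folds were 2.72, 3.22 and 3.44 in WT and 2.59, 2.99 and 3.23 in KO B cells. Here too the genotypes overlapped. Each peak reached at least 416 bp upstream of the first TSS of Yme1l1 and so also covered the start of Mastl, the kinase gene that begins there.

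Dnm1l, which encodes the fission GTPase itself, was listed with folds of 3.07, 3.00 and 2.97 in WT and, after no peak in KO replicate 1, of 2.70 and 2.76 in KO B cells. Of 2048 genes listed in 3 WT and 2 KO libraries, 12.9% had both KO folds below all WT folds, as Dnm1l did. The KDM2A peaks of Dnm1l (chr16:16312230-16358959, minus strand) overlapped its island in all 5 lists and covered the first TSS in WT replicates 2 and 3 and KO replicate 3. In the other lists they began 13 bp (WT replicate 1) and 158 bp (KO replicate 2) downstream of it.

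Mff, whose product is a DRP1 receptor of the outer membrane, had the highest folds of the group. The values were 2.92, 4.61 and 4.70 in WT and 2.70, 2.74 and 4.31 in KO B cells. Both genotypes thus held low and high libraries: WT replicate 1 and KO replicates 1 and 2 were below 3, and WT replicates 2 and 3 and KO replicate 3 were above 4. In the last 3 lists this peak was above 99.6%, 99.9% and 99.7% of the peaks of its own list by fold. All 6 peaks of Mff (chr1:82724890-82752394, plus strand) covered the first TSS and were 283 to 674 bp wide and began 69 to 228 bp upstream, within the bases printed above. On log2 of the fold, centred on the median of each library, the KO minus WT difference of Mff was -0.27 (SE 0.18), with an adjusted p of 0.876 in limma. It ranged from -0.14 without WT replicate 3 to -0.47 without WT replicate 1 and -0.48 without KO replicate 3, with adjusted p in limma from 0.832 to 0.972 over all libraries left out in turn.

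**Figure D2:**
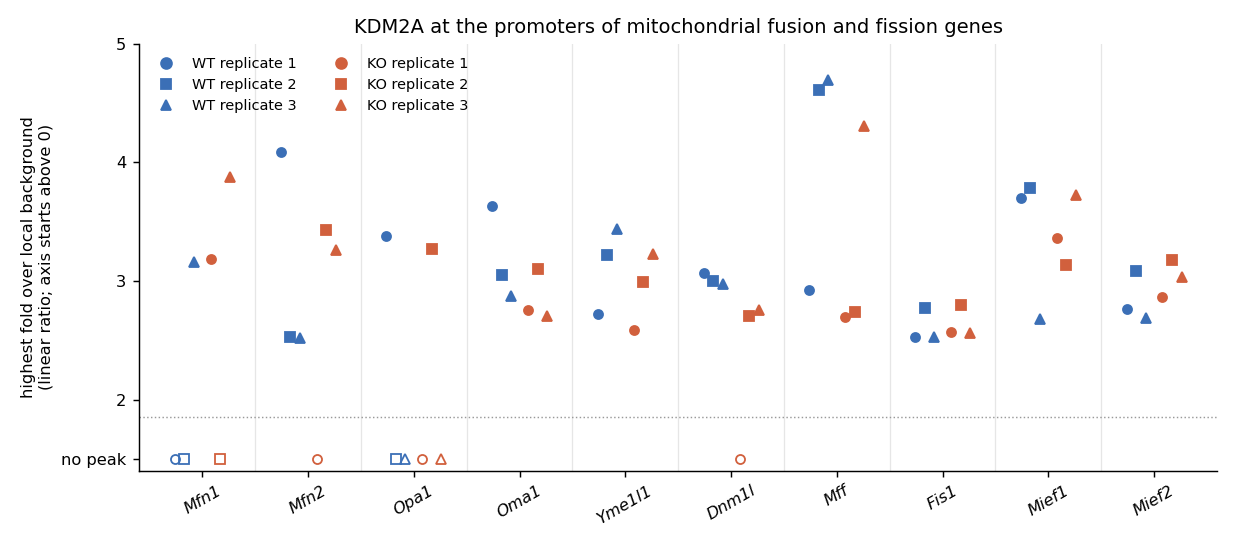
Highest KDM2A fold over local background among the promoter peaks of each gene (vertical axis, linear ratio starting above 0), with 1 point per library, WT in blue and KO in orange. Open symbols on the lowest row mark libraries without a promoter peak. The points of Mff split into 3 values between 4.31 and 4.70 and 3 between 2.70 and 2.92, with both genotypes in each set.

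The 3 other receptor genes were listed throughout. Mief1 (chr15:80234018-80253371, plus strand) had highest promoter folds of 3.70, 3.78 and 2.68 in WT and 3.36, 3.13 and 3.73 in KO B cells, from a peak across the first TSS in all 6 lists. The genotypes overlapped. Fis1 (chr5:136953275-136966234, plus strand) had folds of 2.53, 2.77 and 2.53 in WT and 2.57, 2.80 and 2.56 in KO B cells, a spread smaller than at any other gene listed in all 6 libraries, although these highest values came from peaks at different places in the windows. Mief2 (chr11:60728398-60732951, plus strand) had folds of 2.76, 3.08 and 2.69 in WT and 2.87, 3.18 and 3.04 in KO B cells, which overlapped.

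None of the 6 genes listed in all libraries passed the test of KDM2A promoter fold between the genotypes. The same limma test covered 7283 genes with a promoter peak in all 6 libraries and called 0% of them at an adjusted p under 0.05 (0 genes, with 391 at an unadjusted p under 0.05). The KO minus WT differences of the 6 members ran from -0.27 at Mff to 0.16 at Mief2 (SE 0.10) on the log2 scale, 3 below and 3 above 0, with a median of 0.03 against 0.00 over all genes tested. Their adjusted p ranged from 0.876 to 0.992. After centring, the KO libraries of Mief2 all lay above its WT libraries, which was also so for 5.35% of all genes tested. The opposite order, seen in 5.56% of genes, occurred at no member. The 4 members outside this test (Mfn1, Mfn2, Opa1 and Dnm1l) lacked a peak in at least 1 library.

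The published rule of the study, applied to mean folds, picked 1 interval of these genes in each direction. Peaks of the 6 KDM2A lists that overlap by at least 1 bp were joined to intervals, an interval was counted as bound in a genotype with peaks in at least 2 of 3 libraries, and it was called enriched with a mean fold above 3 and, where bound in both, a ratio of means above 1.173. Of 16511 bound intervals 14 touched a member, 10 of them bound in both genotypes, 3 in WT alone (all at Mief1) and 1 in KO alone (at Mfn1). The Mff promoter was WT-enriched, with mean folds of 4.08 and 3.25 and a ratio of 1.26, and 9.14% of all bound intervals were WT-enriched. An interval that began within the 3′ end of Mief1 and ran past the gene, with mean folds of 4.40 and 3.76, missed the ratio at 1.171. It is among the 10 bound in both genotypes, but only its WT replicate 3 peak (fold 3.95) touched Mief1. Its folds in the other lists came from peaks beyond the gene. The Mfn1 promoter was KO-enriched, with a mean fold of 3.53 over the 2 KO libraries that list it, and 1.91% of all bound intervals were KO-enriched. This rule has no replicate error, the Mff call was absent without WT replicate 3, KO replicate 1 or KO replicate 2, and the Mfn1 call was absent without KO replicate 1 or 3. The WT-enriched count was 1 as stated, 0 without WT replicate 3 and 4 without KO replicate 3, and the KO-enriched count was 2 without WT replicate 1.

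The largest difference in the extent of KDM2A was at Mief2. The share of its promoter window under KDM2A peaks, called cover here, came to 57.1%, 63.8% and 70.9% in WT and 35.6%, 23.3% and 26.3% in KO B cells. All KO libraries lay below all WT libraries, with a mean of 63.9% ± 6.93 in WT and 28.4% ± 6.41 in KO B cells (SD, n = 3). In each WT list a single peak of 2310 to 2871 bp ran from inside Flii across its start, touching both islands, and over the first TSS of Mief2. In KO replicates 1 and 2 this stretch held separate peaks, 630 and 717 bp long over the Flii start and 810 and 225 bp long inside Mief2, beginning 61 and 78 bp downstream of its TSS. In KO replicate 3 a single peak of 1336 bp lay over the Flii start and ended 936 bp upstream of Mief2. The first TSS of Mief2 was under a peak in 3 of 3 WT and 0 of 3 KO lists, as for 1.55% of the 10387 protein-coding genes with a KDM2A peak over the first TSS in any list. The folds of the peaks overlapped.

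**Figure D3:**
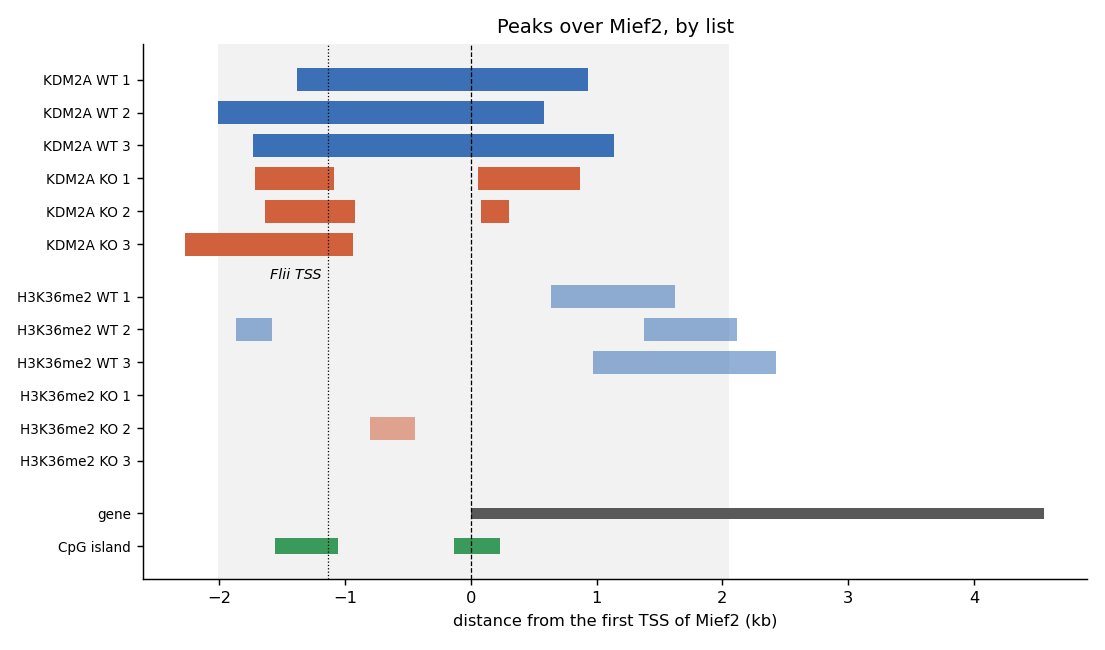
Peaks over Mief2 in each of the 12 lists (rows), against distance from its first TSS in kb, with WT in blue, KO in orange and H3K36me2 in lighter shades. The grey band is the promoter window, the dashed line the Mief2 TSS, the dotted line the Flii TSS, and the lowest rows show the gene and the CpG islands. The KDM2A bars of the 3 WT lists cross the dashed line and those of the 3 KO lists do not.

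In limma the difference in cover at Mief2 was -35.5 percentage points (SE 8.61), with an unadjusted p of 0.00422 and an adjusted p of 0.290, so it did not pass the threshold over 13464 genes tested, of which 0% were called (0 genes, with 1321 at an unadjusted p under 0.05). WT libraries lay above KO libraries without overlap at 14.9% of genes tested and at 1 of the 9 members tested, Mief2. The KO lists are shorter, and the median difference over all genes was -3.37 points. Per percent of genome covered by each list this median was 2.66, with KO libraries below WT libraries without overlap at 4.39% of genes and above them at 12.4%. On this scale Mief2 gave 71.7 ± 17.5 in WT and 54.2 ± 17.7 in KO B cells (SD, n = 3), and the genotypes overlapped. The other 8 members tested had differences from -7.39 points at Mief1 to 0.67 points at Mfn1, with adjusted p from 0.638 to 0.966 in limma, and their median with Mief2 was -1.26 points. The difference at Mfn1 ran from 0.215 points without KO replicate 3 to 1.29 points without KO replicate 2, and that at Mief1 from -10.2 points without WT replicate 2 to -4.88 points without KO replicate 1. Of these 8, 7 were below 0, and after division by the genome share 6 of the 7, all but Mfn2, were above 0.

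KDM2A also lay inside Fis1 and Mief1. At Fis1 each of the 6 lists had a peak within the stretch 8.56 to 9.74 kb downstream of the first TSS, which holds internal TSS and no island. These peaks did not all overlap one another, since that of WT replicate 1 ended at 8.92 kb and that of WT replicate 3 began at 9.00 kb. The island itself was touched in WT replicate 1 and KO replicate 3. Cover of the Fis1 promoter windows came to 15.8%, 3.30% and 14.6% in WT and 10.1%, 11.4% and 9.15% in KO B cells, which overlapped. Mief1 carried 5, 4 and 4 KDM2A peaks over its body in WT and 1, 3 and 2 in KO B cells. Its body cover came to 19.9%, 13.8% and 18.1% in WT and 1.67%, 10.3% and 4.60% in KO B cells, and the genotypes did not overlap, as at 16.4% of 13668 genes with a body peak in at least 3 of 6 libraries and at 1 of the 9 such members. Per percent of genome covered by the list, body cover of Mief1 was 18.8 ± 1.57 in WT and 11.2 ± 11.0 in KO B cells (SD, n = 3), which overlapped. A KDM2A peak between 3.97 and 4.98 kb inside Mief1 was present in all 3 WT lists, with folds of 2.41 to 2.86, and in no KO list, a pattern shared by 2.88% of the 16511 intervals bound in a genotype. In WT replicate 3 part of the cover came from a peak of 10749 bp that began within the 3′ end of Mief1 and ran past the gene. Body cover of KDM2A was not among the tests, and the KO lists hold fewer peaks throughout.

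H3K36me2 peaks were listed at fewer of these promoters than KDM2A peaks in each replicate of both genotypes. This mark lies broadly over active chromatin and is the substrate of KDM2A. Promoter peaks were found at 5, 7 and 4 of the 10 genes in WT replicates 1 to 3 and at 4, 3 and 1 in KO replicates 1 to 3. The shares of protein-coding genes with an island were 50.9%, 51.8%, 53.3%, 48.4%, 19.8% and 21.8% in the same order. No member had a promoter peak in all 6 lists, against 7.38% of those genes, and Opa1 and Oma1 had none in any. Over the gene bodies 3, 5 and 2 genes had a peak in WT and 3, 2 and 1 in KO B cells, against 51.9%, 53.1%, 53.3%, 52.8%, 26.2% and 28.6% of protein-coding genes with an island in that order. Mfn2, Yme1l1 and Dnm1l had no body peak in any list.

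Fis1 and Mief2, which code for a DRP1 receptor each, had less H3K36me2 cover in every KO library than in any WT library. H3K36me2 covered 19.99%, 9.12% and 21.2% of the Fis1 gene in WT and 4.72%, 0% and 0% in KO B cells. The peaks recurred at the same place, since each WT list had 1 of 837 to 1151 bp that began 7.32 to 7.36 kb into the gene, and KO replicate 1 had 1 of 465 bp there. H3K36me2 covered 21.7%, 16.1% and 31.9% of the Mief2 gene in WT, and no KO list had a peak in it. The WT peaks lay 0.639 to 2.42 kb downstream of the TSS, overlapping the 3′ end of the KDM2A peak in WT replicates 1 and 3 and lying beyond it in WT replicate 2. At both genes the WT and KO libraries did not overlap.

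**Figure D4:**
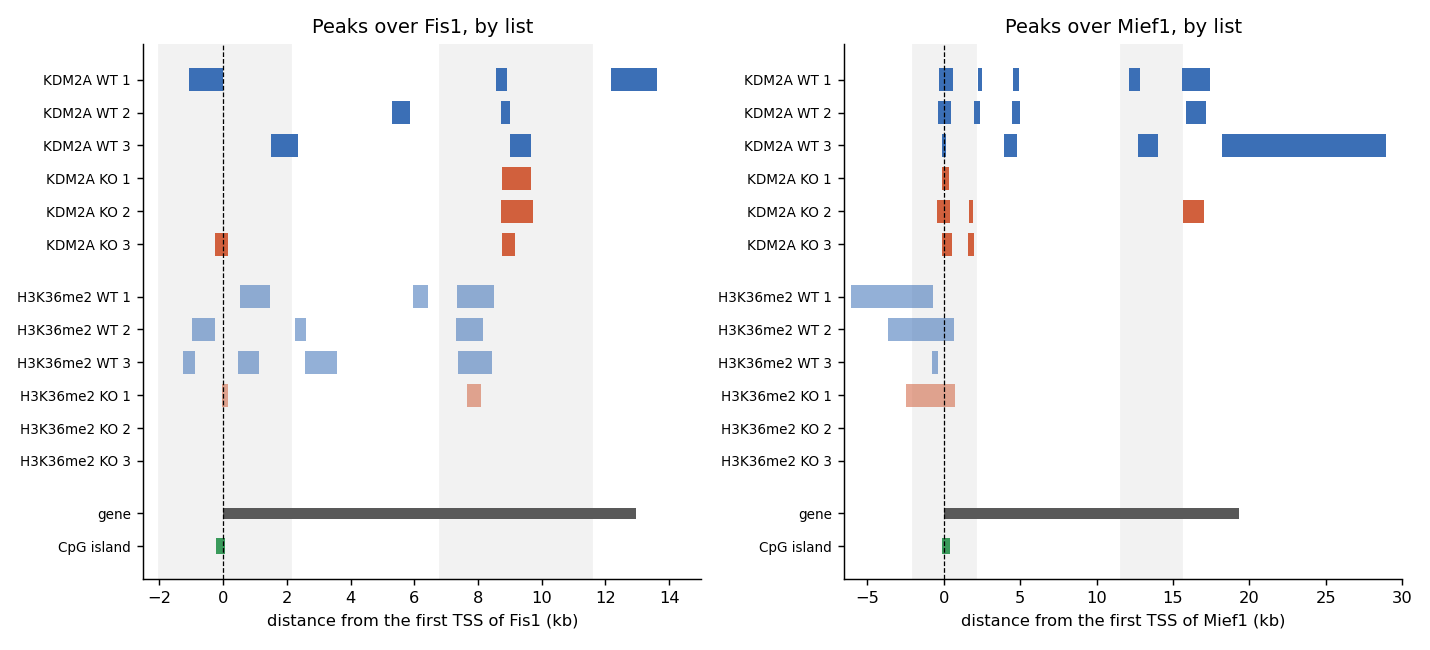
Peaks over Fis1 and Mief1 in each of the 12 lists (rows), against distance from the first TSS in kb, with WT in blue, KO in orange and H3K36me2 in lighter shades. Grey bands are promoter windows, and the lowest rows show the gene and its CpG island. Fis1 has an H3K36me2 bar near 7.3 kb in 3 of 3 WT lists and shorter ones in KO replicate 1 alone, and Mief1 has a KDM2A bar near 4 kb in 3 of 3 WT and 0 of 3 KO lists.

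Mief2 met the filter of the gene-body test, a peak in at least 3 of 6 libraries, through its 3 WT libraries alone. Its difference and adjusted p are thus those of a gene admitted by the genotype where it is high. In limma the KO minus WT difference in gene-body cover was -15.2 points (SE 4.39) at Fis1, with an adjusted p of 0.178, and -23.2 points (SE 5.20) at Mief2, with an adjusted p of 0.160. Neither passed the threshold over 13038 genes tested, of which 54 genes (0.414%) did, 53 of them lower and 1 higher in KO B cells. That count was 0 without any 1 of the WT libraries, 184 without KO replicate 1 and 62 and 46 without KO replicates 2 and 3. It was 0 with the replicate number as a block, 0 per percent of genome covered and 319 on log2(percent + 1). On that last scale Mief2, again admitted through WT alone, passed with an adjusted p of 0.0209 in limma. At 31.4% of all genes tested the KO libraries lay below the WT libraries without overlap, and the median difference was -7.22 points, so the direction at Fis1 and Mief2 is that of the lists as a whole. After division by the genome share of each list both still did not overlap, with 3.51 ± 1.60 percent per percent of genome in WT and 0.434 ± 0.752 in KO B cells at Fis1 and 4.77 ± 1.57 in WT and 0 in KO B cells at Mief2 (SD, n = 3), as for 12% of all genes. Oma1, the only other member tested here, had 1.13%, 0% and 0% in WT and 0.396%, 0% and 0.398% in KO B cells. Its difference was -0.11 points, with an adjusted p of 0.882 in limma, and the other 7 members had a body peak in fewer than 3 of the 6 libraries.

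The promoter windows gave the same picture. H3K36me2 covered 23.8%, 17.5% and 23.6% of the Fis1 windows in WT and 7.20%, 0% and 0% in KO B cells. It covered 24.4%, 23.6% and 26.6% of the Mief2 window in WT and 0%, 8.84% and 0% in KO B cells. Both genes again had no overlap between genotypes, as did 27.8% of all genes tested in this direction. The limma differences were -19.2 points (SE 8.76) and -21.9 points (SE 9.85), with adjusted p of 0.236 and 0.234, and of 14466 genes tested 0% were called (0 genes, with 2927 at an unadjusted p under 0.05). The median difference was -6.84 points over the 5 members tested and -11.5 points over all genes. Divided by the genome share, the Fis1 libraries still separated, as at 13.2% of all genes, and those of Mief2 overlapped.

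**Figure D5:**
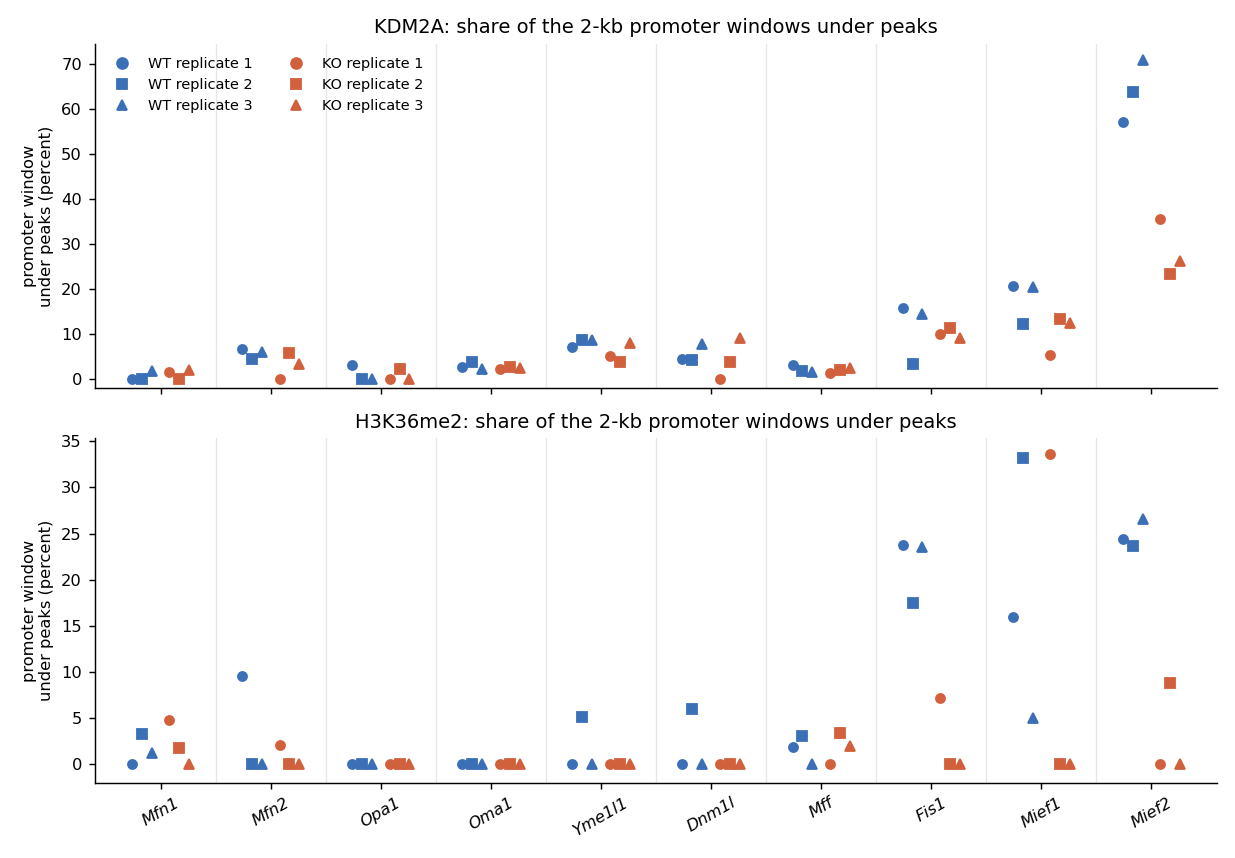
Percent of the promoter windows of each gene under KDM2A peaks (top) and H3K36me2 peaks (bottom), with 1 point per library, WT in blue and KO in orange. At Mief2 the WT points lie above the KO points for both antibodies, and at Fis1 for H3K36me2, while at Opa1 and Oma1 all H3K36me2 points are at 0.

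At Mief1 the libraries did not follow the genotype. H3K36me2 covered 15.9%, 33.2% and 5.02% of its windows in WT and 33.6%, 0% and 0% in KO B cells, so KO replicate 1 was the highest of all 6 and the other KO libraries were at 0. The peaks of WT replicates 1 and 2 and KO replicate 1 were broad, 5393, 4317 and 3172 bp, and began upstream of the window. Those of WT replicate 2 and KO replicate 1 crossed the first TSS, and that of WT replicate 1 ended 709 bp upstream of it. Mff and Mfn1 had small peaks that came and went: cover amounted to 1.90%, 3.10% and 0% in WT and 0%, 3.35% and 2.00% in KO B cells at Mff, and 0%, 3.26% and 1.19% in WT and 4.80%, 1.77% and 0% in KO B cells at Mfn1. Mfn2 was listed in replicate 1 of both genotypes, with 9.58% in WT and 2.07% in KO B cells. Dnm1l (5.97%) and Yme1l1 (5.06%) were listed in WT replicate 2 alone.

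The 20 other genes of mitochondrial dynamics, among them proteases, prohibitins and further outer-membrane factors, gave no calls either. Of the 8 tested for KDM2A promoter fold, 4 had a difference below 0 and 4 above 0, with a median of 0.04 on the log2 scale. The largest differences were at Phb2, a prohibitin of the inner membrane (-0.18), and Spg7, an inner-membrane protease (-0.12), and in the other direction at Miga1 (0.15), an outer-membrane factor that promotes fusion, and Usp30 (0.13), a deubiquitinase, with adjusted p from 0.876 to 0.936 in limma. After centring, the KO libraries of Miga1 lay above its WT libraries, as at 5.35% of all genes tested, while its uncentred folds overlapped. Of the 7 tested for H3K36me2 gene-body cover, 6 were below 0, with a median of -3.86 points against -7.22 points over all genes. Inf2, a formin of the endoplasmic reticulum, differed by -6.79 points (SE 2.43) and Miga2 by -6.76 points (SE 2.85), with adjusted p of 0.197 and 0.213 in limma, and Mtfr2, the only one above 0, by 4.67 points (SE 3.59) with an adjusted p of 0.382. For KDM2A promoter cover, 14 of the 15 tested were below 0, with a median of -3.03 points against -3.37 points over all genes. In 3 of them, Phb, Phb2 and Afg3l2, an inner-membrane protease, named after their values were seen, KO lay below WT without overlap, as at 14.9% of all genes tested. The difference at Phb2 was -28.0 points (SE 8.46) with an adjusted p of 0.371 in limma, the lowest of the list. For H3K36me2 promoter cover, 7 of the 8 tested were below 0, with a median of -6.56 points against -11.5 points over all genes. Mtfp1, an inner-membrane protein that promotes fission, also named after its values were seen, was the 1 gene without overlap (27.8% of all genes), at -24.7 points (SE 9.79) and an adjusted p of 0.207 in limma. It had a promoter peak in every WT and no KO list. Mtfp1 thus met the filter of a peak in at least 3 of 6 libraries through WT alone, and its lack of overlap follows from that entry.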

How the data were processed

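The authors aligned the reads with BWA to GRCm38 within nf-core/chipseq and called broad peaks with MACS2 in each library against its input; the MACS2 version is not given in the sources used here. Each deposited list gives a peak's fold, a ratio over local control background that the authors did not normalise between libraries, and its −log10 p and −log10 q, of which the smallest was about 1. EGS and formaldehyde fixation, list size and the absence of sub-threshold peaks bear on every value.

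Here, Python (3.11.15), pandas (2.3.3) and numba (0.67.0) scored the highest fold and the percent under peaks for every GENCODE M21 gene. CpG islands were built from the genome by a running score (17 per CpG, minus 1 for any other base). limma (3.58.1, R 4.3.3, lmFit and eBayes with trend) compared 3 KO with 3 WT libraries: fold on log2, centred per library, for genes with a peak in all 6, and cover in percent for genes with a peak in at least 3 of 6. P-values were Benjamini-Hochberg adjusted over all genes, with a threshold of 0.05. The fit was also run on simulated independent normal noise with added changes. That run set no pass mark, and no recovery rate from it is used here. Alternatives were leaving out each library, a replicate block, equal numbers of peaks, −log10 q of at least 2, other windows, TSS sets, scales and filters. The overlap of libraries after division by genome share, and that of KDM2A body cover, were added after the values were seen. Members and lists were chosen with earlier results of these data known. All 10 members are named, and of the 20 other genes the 2 with the largest difference in each direction in the KDM2A fold and H3K36me2 body tests. The shares of genes or intervals with the pattern of Dnm1l folds, the Mief1 interval and the Mief2 first TSS were added after those values were seen. Precision is limited by 3 libraries per group and unknown depth. The count over the B cell marker list is not reported here.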

Additional observations from a re-analysis of the deposited data

Results flagged for a closer look

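The KDM2A promoter cover of Mff and the H3K36me2 promoter cover of Mief1 moved in opposite directions in the replicates from male mice (replicate 1) and from female mice (replicates 2 and 3). At Mff the male KO minus male WT difference was -1.78 points and the mean female difference 0.626 points. At Mief1 the values were 17.7 points and -19.1 points. In these cases every comparison of female libraries had the sign opposite to the male one. The mean female difference was opposite in sign to the male one in 9 of the 23 member differences, these included, so opposite means alone are common here. Neither difference between the sexes was tested, and with 1 male library per genotype sex cannot be told apart from the library: the H3K36me2 list of KO replicate 1 holds 106720 peaks against 37447 and 45180 in KO replicates 2 and 3.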

How the results depend on the processing

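Among 86 recomputed counts, 64 were classed as unchanged. For counts of called genes and enriched intervals this meant within 1.5 times the reported count, and a 0 that stayed 0 was included. For members with a promoter peak it meant a mean that moved by no more than the SD over the libraries. Among 297 recomputed member differences 266 kept direction and side of the threshold, 30 reversed and 1 passed the threshold. The cause was not tested in any of these cases. The differences of Mief2 and Fis1 in H3K36me2 cover and of Mief2 in KDM2A cover kept their direction under every alternative that tested them. With −log10 q of at least 2 no H3K36me2 peak remained at Fis1, where the highest value was 1.62, or Mief2, where it was 1.86, so these differences rest on peaks that this setting removes. Mief2 body cover passed the limma threshold on the log2(percent + 1) scale (-4.55, adjusted p = 0.0209). Under the other alternatives its adjusted p in limma was 0.0758 to 0.497. Mief2 met the filter of a body peak in at least 3 of 6 libraries through WT alone, the genotype where it is high.

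The 54 genes called by limma for H3K36me2 gene-body cover became 0 with the replicate block, 0 after division by genome share, 31 with equal numbers of peaks, 15 with −log10 q of at least 2 and 319 on log2(percent + 1), and 0 to 184 when a library was left out. The labels do not say whether same-numbered libraries were prepared together, and this was not tested. Deviations of same-numbered libraries correlated by -0.0419 to 0.0423 over genes, and not every library correlated best with its own number. The block changed no other count of calls. With −log10 q of at least 2, members with a KDM2A promoter peak averaged 6.67 in WT and 5 in KO libraries (8.67 and 8.33 as reported) and with an H3K36me2 promoter peak 1 and 0.333 (5.33 and 2.67 as reported), and equal numbers of peaks gave 3.33 for H3K36me2 in WT and 1.67 in KO libraries. WT-enriched KDM2A intervals at members numbered 2 with folds scaled to a common median and 0 to 4 when a library was left out, and KO-enriched ones 0 to 2.

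These member differences reversed. For KDM2A cover, after division by genome share Oma1 gave 1.45, Yme1l1 0.937, Dnm1l 0.930, Mff 1.36, Fis1 8.16 and Mief1 0.434. Fis1 gave 2.16 with equal numbers of peaks, 2.93 with 1-kb windows and 0.10 on log2(percent + 1), Mfn2 0.849 with −log10 q of at least 2, and Mief1 2.72 with protein-coding TSS only. For H3K36me2, Mff promoter cover gave -0.914 with 1-kb windows and Oma1 body cover 0.0382 after division by genome share. Leaving out a library gave, for KDM2A fold, -0.164 to 0.0353 at Oma1, -0.0987 to 0.0638 at Yme1l1 and -0.0687 to 0.183 at Mief1. For KDM2A cover it gave -0.819 to 0.0347 at Oma1, -3.65 to 0.870 at Dnm1l, -0.457 to 0.297 at Mff and -4.97 to 1.29 at Fis1. For H3K36me2 promoter cover it gave -0.596 to 1.80 at Mfn1, -0.718 to 1.01 at Mff and -18.1 to 0.734 at Mief1, and for body cover -0.299 to 0.265 at Oma1. Depth is unknown, so an unlisted peak is not evidence of absence, and 3 libraries per group limit every test.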
